A study of Mus musculus with 38 samples.

Results

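The natriuretic peptide system was followed through 6 genes: the ligand genes Nppa and Nppb, the protease gene Corin, and the receptor genes Npr1, Npr2 and Npr3. They were taken by gene name, with no threshold on measured values, from a table of 35682 mouse genes, and all 6 were found. The set was proposed with earlier results of these data known. The question was which cell population of the heart holds each transcript and whether its level differed between sham surgery, myocardial infarction and infarction after empagliflozin. Empagliflozin (EMPA) is an oral inhibitor of the renal glucose carrier SGLT2.

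Male C57BL/6 mice aged 8 to 12 weeks received vehicle or EMPA by mouth daily for 6 weeks. Sham mice received vehicle and an open chest operation with no ligation. Control-AMI mice received vehicle and then 30 min of ligation of the left anterior descending artery with 2 h of reperfusion. EMPA–Pre-AMI mice received EMPA at 10 mg/kg/day and then the same ischemia and reperfusion. The paper describes no Sham group given EMPA among these mice, so the comparison of EMPA–Pre-AMI with Sham joins the drug and the injury. Each of the 38 libraries came from 2 pooled hearts, cut below the suture, and each population was read as 3′ mRNA tags. A digested heart gave both the cardiomyocyte pellet and the cells that were sorted, so libraries of different populations can share hearts. Cardiomyocytes were pelleted at 20 g and not sorted (4 libraries of Sham, 5 of Control-AMI and 4 of EMPA–Pre-AMI). Endothelial cells (ECs) were sorted as CD45− CD31+ cells (4, 4 and 5 libraries), and fibroblasts as CD45− CD31− CD90+ cells (4 in each group).

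Nppa encodes atrial natriuretic peptide and Nppb encodes B-type natriuretic peptide, hormones that myocytes secrete when the wall is stretched and that promote sodium loss and vasodilation. Corin is the transmembrane protease that cuts the precursor of atrial natriuretic peptide into its active form. Npr1 is the guanylyl cyclase receptor for both hormones, Npr2 is the guanylyl cyclase receptor for C-type natriuretic peptide, and Npr3 lacks a cyclase and clears the peptides from the circulation.

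On GRCm39, Nppb (ENSMUSG00000029019, chr4:148069859-148071662) and Nppa (ENSMUSG00000041616, chr4:148085091-148086583) lie on the plus strand of chromosome 4 with 13428 bases between them, and each has 3 exons in its reference transcript. Npr2 (ENSMUSG00000028469, chr4:43631339-43651436) is on the same chromosome, Npr1 (ENSMUSG00000027931, chr3:90356458-90373748) on chromosome 3 and Corin (ENSMUSG00000005220, chr5:72457290-72661924) on chromosome 5, and these have 22 exons each. Npr3 (ENSMUSG00000022206, chr15:11839982-11907373) has 8 exons. The 250 bases before the RefSeq start of Nppa (chr4:148084929-148085178) and of Nppb (chr4:148070107-148070356) are shown because these neighbouring genes were read at very different levels in the same cardiomyocyte libraries. By these coordinates the Nppb window lies inside its annotated gene, and the Nppa window runs past the annotated start of Nppa. Distances are therefore from the RefSeq start only. Capitals mark GATA, M-CAT and TATA motif letters.
Nppa: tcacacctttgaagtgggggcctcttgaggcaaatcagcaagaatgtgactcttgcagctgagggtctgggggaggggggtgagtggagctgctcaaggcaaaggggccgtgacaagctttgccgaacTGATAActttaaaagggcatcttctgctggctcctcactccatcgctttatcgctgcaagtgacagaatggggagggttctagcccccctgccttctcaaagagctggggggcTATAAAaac
Nppb: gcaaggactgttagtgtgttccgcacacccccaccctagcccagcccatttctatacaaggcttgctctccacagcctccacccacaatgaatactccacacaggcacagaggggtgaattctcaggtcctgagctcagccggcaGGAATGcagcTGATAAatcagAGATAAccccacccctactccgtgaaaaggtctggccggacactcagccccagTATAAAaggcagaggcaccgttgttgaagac
The letters TGATAA, a form bound by GATA factors, stand 122 to 117 bases before the start of Nppa. Nppb holds TGATAA at 95 to 90 and AGATAA at 84 to 79 bases before its start, and GGAATG, the M-CAT motif CATTCC on the opposite strand, at 105 to 100. TATAAA stands 9 to 4 bases before the start of Nppa and 31 to 26 before that of Nppb. The windows before Npr1, Npr2, Npr3 and Corin held none of these letters. Of 32841 windows of this length before RefSeq starts, 26.5% held a GATA motif (the letters GATA after an A or a T and before an A or a G, on either strand), 12.6% held M-CAT on either strand and 7.59% held TATAAA on the gene's strand. TGAAGTG, a form of the NK2 homeobox motif TNAAGTG, stands 241 to 235 bases before the start of Nppa, and 10.1% of the windows held that motif on either strand. The AP-1 motif TGANTCA was in none of the 6 windows and in 6.75% of all. These matches describe letters only.

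The estimated counts of a library totalled 2031716 to 4509284 for cardiomyocytes, 1352514 to 2195308 for ECs and 1946056 to 2821373 for fibroblasts. Mitochondrially encoded genes took 46.6% to 66.01% of the cardiomyocyte counts, against 4.52% to 14.6% of the EC and 3.47% to 12.5% of the fibroblast counts. The summed level of 9 cardiomyocyte markers was 51770 to 108600 CPM in cardiomyocytes, against 215 to 1146 CPM in EC libraries and 115 to 702 CPM in fibroblast libraries, where CPM is the count scaled to library size after TMM normalization of all 38 libraries together. The 9 endothelial markers summed to 4501 to 9489 CPM in ECs and 1101 to 2595 in cardiomyocytes, and the 9 fibroblast markers to 10780 to 17150 CPM in fibroblasts and 430 to 4040 in cardiomyocytes. Each population therefore carried its own markers, and the unsorted cardiomyocyte libraries also carried transcripts of the other populations. In Control-AMI ECs the fibroblast markers summed to 1395 to 5102 CPM, highest in replicates 1 and 4, against 345 to 1040 in the other EC groups. Sample numbers fell into 4 series, and among cardiomyocytes the fourth series held every library of Sham and of Control-AMI but only replicate 4 of EMPA–Pre-AMI. Sham ECs shared no series with Sham cardiomyocytes or with Sham fibroblasts. Sham cardiomyocytes and Sham fibroblasts shared a series only through fibroblast replicate 1. Within Sham, the difference of ECs from either other population therefore cannot be told apart from the series. What those series stand for is not given in the sources used here.

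**Figure D1:**
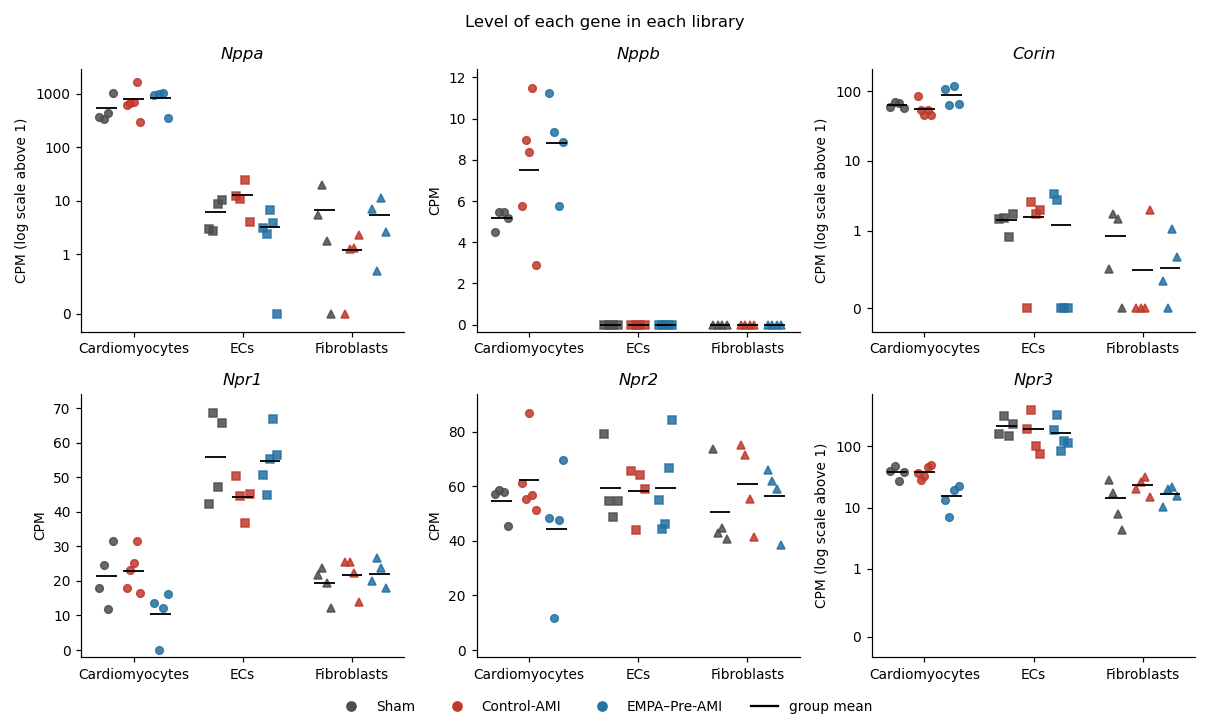
Level of each of the 6 genes in each of the 38 libraries, in CPM (counts scaled to library size after TMM normalization of all libraries together); points are libraries, black lines are group means, and the axes of Nppa, Corin and Npr3 are logarithmic above 1. Nppa and Corin were high in cardiomyocytes, Nppb was low and read only there, Npr3 and Npr1 were highest in ECs, and Npr2 lay in 1 range in all 3 populations.

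Nppa was a cardiomyocyte transcript. It was read at 364, 338, 438 and 1016 CPM in the 4 Sham cardiomyocyte libraries, at 2.92, 2.74, 8.89 and 10.4 CPM in Sham ECs and at 5.36, 19.4, 1.77 and 0 CPM in Sham fibroblasts. The cardiomyocyte libraries lay above every library of the other populations. Nppa was 87.2-fold higher in Sham cardiomyocytes than in Sham ECs (log2 fold change 6.45 ± 0.85 SE, FDR = 1.9e-07) and 82.9-fold higher than in Sham fibroblasts (6.37 ± 0.84, FDR = 2.22e-07), and ECs and fibroblasts were not told apart (−0.07 ± 0.85, FDR = 0.959). These tests came from edgeR's quasi-likelihood fit over all 38 libraries, with n = 4 libraries a group, and fold changes between populations are on the same TMM scale as the CPM. For every 1000 CPM of cardiomyocyte markers, Nppa stood at 3.85 to 31.6 CPM in cardiomyocyte libraries, 0 to 37.3 CPM in EC libraries and 0 to 40.5 CPM in fibroblast libraries. This ratio thus overlapped in the 3 populations, while the level of Nppa in cardiomyocytes overlapped with neither other population.

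Nppb was read in every cardiomyocyte library and in no other. Sham cardiomyocytes held 4.5, 5.47, 5.47 and 5.17 CPM, which rested on 7 to 10 counts a library. All 13 EC and all 12 fibroblast libraries were at 0. Against the level that 3 counts would give in the smallest library of the group, Nppb was at least 3.95-fold higher in Sham cardiomyocytes than in Sham ECs (limit 1.30 CPM) and at least 5.82-fold higher than in Sham fibroblasts (limit 0.886 CPM). These limits cover counting error only. Nppb passed the filter on low counts in cardiomyocytes but not in the fit over all libraries.

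Corin was likewise a cardiomyocyte transcript. Sham cardiomyocytes were read at 58.5, 69.5, 67.2 and 57.4 CPM, Sham ECs at 1.46, 1.52, 0.919 and 1.74 CPM, and Sham fibroblasts at 0.510, 1.77, 1.48 and 0 CPM. Corin was 44.0-fold higher in Sham cardiomyocytes than in ECs (log2 fold change 5.46 ± 0.62, FDR = 3.25e-09) and 68.0-fold higher than in fibroblasts (6.09 ± 0.64, FDR = 5.73e-10). Over all conditions no EC library held more than 10 Corin counts and no fibroblast library more than 7. The protease was thus read in the same population as the prohormone that it cuts.

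Npr1, the cyclase receptor for the hormones of Nppa and Nppb, was highest in ECs. Sham ECs held 42.3, 68.6, 47.2 and 65.6 CPM, Sham cardiomyocytes 18.0, 24.6, 11.7 and 31.6 CPM, and Sham fibroblasts 21.7, 23.9, 19.5 and 12.2 CPM. The EC libraries lay above all others, while cardiomyocytes and fibroblasts overlapped. Npr1 was 2.90-fold higher in ECs than in fibroblasts (log2 fold change 1.54 ± 0.30, FDR = 4.92e-05) and 1.36 ± 0.31 lower on the log2 scale in cardiomyocytes than in ECs (FDR = 0.000303), and cardiomyocytes and fibroblasts were not told apart (0.18 ± 0.31, FDR = 0.667). For every 1000 CPM of endothelial markers, Npr1 stood at 4.54 to 11.2 CPM in ECs and at 40.03 to 182 CPM in fibroblasts. In cardiomyocytes this ratio was 0 to 21.7 CPM. The ratio of Npr3 to endothelial markers was 9.26 to 66.1 CPM in ECs, 35.2 to 129 CPM in fibroblasts and 2.71 to 34.7 CPM in cardiomyocytes. The part of endothelial transcripts in these receptor values was not tested.

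Npr2, the receptor for C-type natriuretic peptide, lay in a single range in all 3 populations. It was read at 57.2, 58.5, 57.9 and 45.4 CPM in Sham cardiomyocytes, at 79.2, 54.6, 48.7 and 54.7 CPM in Sham ECs and at 73.7, 42.7, 44.9 and 40.6 CPM in Sham fibroblasts. The groups overlapped. Differences on the log2 scale were −0.12 ± 0.28 between cardiomyocytes and ECs (FDR = 0.752), 0.12 ± 0.28 between cardiomyocytes and fibroblasts (FDR = 0.756) and 0.23 ± 0.27 between ECs and fibroblasts (FDR = 0.548). Its ligand gene Nppc was at 0 in all 13 cardiomyocyte libraries and reached 0.610 CPM in ECs and 0.665 CPM in fibroblasts, which was too low to be tested.

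Npr3, the clearance receptor, was the member with the steepest order among populations outside the myocyte genes. Sham ECs held 162, 310, 149 and 229 CPM, Sham cardiomyocytes 39.2, 48.7, 27.4 and 37.9 CPM, and Sham fibroblasts 28.1, 17.1, 7.97 and 4.38 CPM. Npr3 was 14.8-fold higher in ECs than in fibroblasts (log2 fold change 3.88 ± 0.51, FDR = 1.42e-07), and it was 2.46 ± 0.48 lower on the log2 scale in cardiomyocytes than in ECs (FDR = 6.54e-05). Cardiomyocytes were 2.68-fold higher than fibroblasts (1.42 ± 0.50, FDR = 0.019), but this call did not hold without Sham cardiomyocyte replicate 2 (1.28, FDR = 0.0565), Sham fibroblast replicate 3 (1.22, FDR = 0.0634) or Sham fibroblast replicate 4 (1.11, FDR = 0.0753).

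Of the 5 members tested between Sham populations, 4 passed FDR 0.05 between cardiomyocytes and ECs, 3 between cardiomyocytes and fibroblasts, and 2 between ECs and fibroblasts. Over all 12085 genes the shares past the threshold were 52.9%, 47.3% and 37.7%, so a call between populations was common. The scale decided part of the order: with library size alone in place of TMM the median of all genes moved to −1.85 (cardiomyocytes minus ECs) and −1.84 (cardiomyocytes minus fibroblasts), from −0.04 and −0.09. On that scale Npr1 (−1.56, FDR = 0.000128) and Npr2 (−1.65, FDR = 4.03e-06) passed as lower in cardiomyocytes than in fibroblasts, Npr3 turned to −0.34 (FDR = 0.535), and Nppa stayed higher in cardiomyocytes than in ECs by 4.69.

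Nppa varied widely among cardiomyocyte libraries of 1 group. Control-AMI cardiomyocytes held 605, 677, 713, 1634 and 296 CPM and EMPA–Pre-AMI cardiomyocytes 952, 965, 1046 and 348 CPM. Sham replicate 4 stood at the level of the EMPA–Pre-AMI libraries, and EMPA–Pre-AMI replicate 4 and Control-AMI replicate 5 stood at the level of the other Sham libraries, so all 3 groups overlapped. The mean was 539 ± 321 CPM for Sham (SD, n = 4), 785 ± 502 for Control-AMI (n = 5) and 828 ± 322 for EMPA–Pre-AMI (n = 4).

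The genes whose levels followed Nppa most closely over the 13 cardiomyocyte libraries, among 9166 others tested, were the atrial light chain Myl4 (Pearson r = 0.971, Spearman rho = 0.967), the atrial calcium pump regulator Sln (0.909 and 0.819) and the atrial light chain Myl7 (0.897 and 0.852). These correlations are descriptions over libraries that share condition and depth, and without the 2 libraries farthest from the median they were 0.960, 0.909 and 0.849. All 3 genes stand on a list of 5 atrial myocyte genes (Myl4, Myl7, Sln, Bmp10 and Sbk2). The summed level of that list was 96.8 to 368 CPM for Sham, 125 to 920 for Control-AMI and 129 to 580 for EMPA–Pre-AMI cardiomyocytes, highest in the library with the highest Nppa. In Sham the list summed to 368 CPM in replicate 4 and to 96.8 to 127 in the others. None of the 5 genes was at 0 in every cardiomyocyte library, and Bmp10 was at 0 in 7 of 13. The part of atrial transcripts in the Nppa values was not tested.

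**Figure D2:**
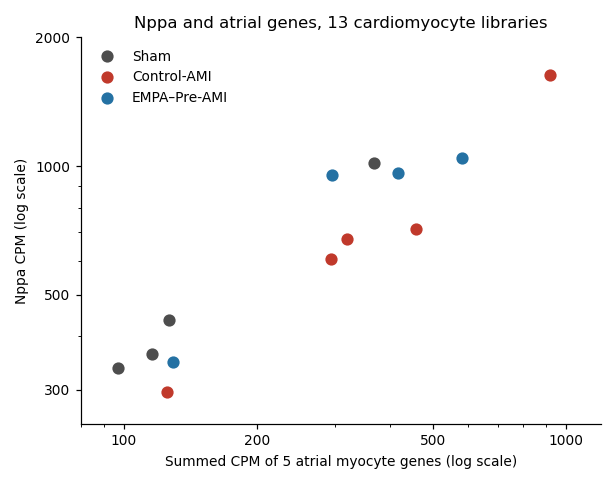
Nppa level against the summed level of 5 atrial myocyte genes in the 13 cardiomyocyte libraries, both in CPM on logarithmic axes; each point is a library, coloured by group. Libraries low in the atrial genes, 96.8 to 129 CPM, held 296 to 438 CPM of Nppa, and the library highest in them, 920 CPM, held 1634 CPM.

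Npr3 in ECs also varied among libraries of 1 group, from 74.1 to 402 CPM in Control-AMI and from 82.8 to 330 CPM in EMPA–Pre-AMI. Over the 13 EC libraries and 10437 other genes it was followed most closely by the phosphatase gene Ptpn14 (r = 0.920, rho = 0.929), the endothelial clotting factor carrier Vwf (0.917 and 0.923) and the kinase gene Bmx (0.913 and 0.918). Without the 2 farthest libraries these r values were 0.915, 0.902 and 0.899. The 4 endocardial genes Nfatc1, Cytl1, Hapln1 and Plvap summed to 101 to 349 CPM in ECs, 21.1 to 54.5 in cardiomyocytes and 24.2 to 65.96 in fibroblasts. For every 1000 CPM of these genes, Npr3 stood at 655 to 1269 CPM in ECs, 333 to 1266 in cardiomyocytes and 181 to 782 in fibroblasts. The ranges overlapped in all 3 populations. Among cardiomyocytes the ratio was 750 to 947 CPM for Sham, 521 to 1266 for Control-AMI (median 1078) and 333 to 789.5 for EMPA–Pre-AMI (median 641).

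**Figure D3:**
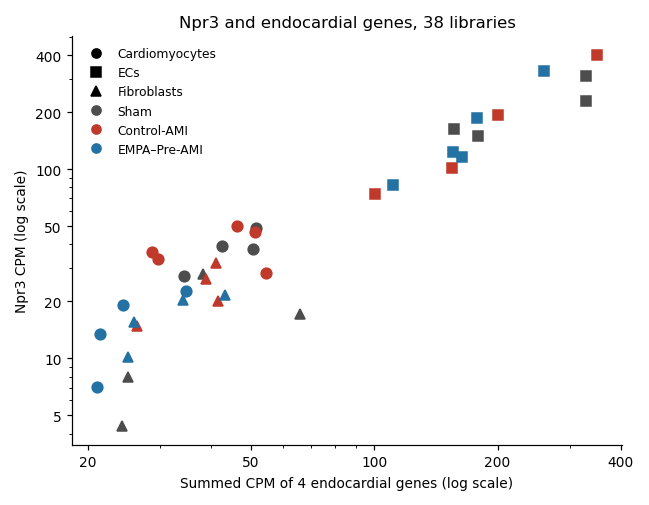
Npr3 level against the summed level of 4 endocardial genes in all 38 libraries, both in CPM on logarithmic axes; shape gives the population and colour the group. EC libraries lay at the upper right (74.1 to 402 CPM of Npr3), and the 4 EMPA–Pre-AMI cardiomyocyte libraries lay lowest among cardiomyocytes (7.03 to 22.6 CPM).

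For the other members the closest genes are named by the same measure. Nppb in cardiomyocytes went with Fbxo8 (r = 0.885), Sh2d3c (0.847) and Eftud2 (0.844). Corin in cardiomyocytes went with Rabggtb (0.920, and 0.759 without the 2 farthest libraries), Rasl11b (0.918) and Ghitm (0.911). In ECs, Npr1 went with Yod1 (0.893), Wdr5 (0.849) and Ankrd33b (0.841), and Npr2 with Trmu (0.915), Triobp (0.871) and Cyb5r1 (0.840).

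No member passed the threshold between Control-AMI and Sham cardiomyocytes. The test was edgeR's quasi-likelihood fit of that population with its own scaling, at FDR 0.05 over 9167 genes, where 0.0655% of genes passed between Control-AMI and Sham. Nppa differed by 0.57 ± 0.50 on the log2 scale (FDR = 1), a difference that ran from 0.08 to 1.06 as single libraries were left out, and Nppb by 0.55 ± 0.42 (FDR = 1). Nppb was read at 5.74, 8.96, 8.38, 11.5 and 2.89 CPM in Control-AMI cardiomyocytes, on 4 to 16 counts a library, and the Sham range lay inside these values. Corin was read at 84.2, 53.8, 44.96, 53.2 and 45.5 CPM in Control-AMI, with a difference of −0.15 ± 0.22 (FDR = 1). Npr1 (17.9, 23.1, 25.1, 31.6 and 16.6 CPM), Npr2 (61.2, 55.2, 86.9, 56.8 and 51.3 CPM) and Npr3 (36.4, 28.4, 33.5, 46.8 and 49.8 CPM) also overlapped with Sham, with differences of 0.09, 0.20 and 0.03. In these bulk libraries fewer cells of a kind and less RNA per cell cannot be told apart.

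Between EMPA–Pre-AMI and Control-AMI cardiomyocytes, Npr3 had the lowest FDR of the members. EMPA–Pre-AMI libraries held 13.5, 7.03, 19.2 and 22.6 CPM, on 6 to 30 counts, and all lay below every Control-AMI and every Sham library. The difference from Control-AMI was −1.24 ± 0.29 on the log2 scale (FDR = 0.0571) and that from Sham −1.21 ± 0.29 (FDR = 0.0864), so neither passed FDR 0.05. Corin was read at 107, 63.2, 117 and 64.6 CPM in EMPA–Pre-AMI, with 2 libraries above all of Control-AMI, and differed from Control-AMI by 0.69 ± 0.22 (FDR = 0.0828) and from Sham by 0.54 ± 0.24 (FDR = 0.238). Under DESeq2 both differences from Control-AMI passed (Npr3 −1.22, FDR = 0.0071, and Corin 0.71, FDR = 0.0397). Without EMPA–Pre-AMI replicate 4 they passed in edgeR too (Npr3 −1.43, FDR = 0.0069, and Corin 0.83, FDR = 0.0191), and Npr3 but not Corin passed without EMPA–Pre-AMI replicate 1 (−1.18, FDR = 0.0463). Neither passed when any other single library was left out, with an FDR of up to 0.195 (Npr3) and 0.275 (Corin), each without EMPA–Pre-AMI replicate 3, or in a fit of only the 2 groups compared (FDR = 0.168 and 0.197).

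At FDR 0.05 the shares of all genes past the threshold were 0.0218% (2 genes) for EMPA–Pre-AMI against Control-AMI and 0.338% against Sham, with no member among them, and 2295 and 1672 genes had an unadjusted p under 0.05. At FDR 0.1, the looser threshold that the study also used, 2 of 6 members (Npr3 and Corin) passed against Control-AMI where 10.7% of all genes did, and 1 of 6 (Npr3) passed against Sham where 0.818% did. CPM of the groups did not overlap for 2 members (Npr1 and Npr3) against Control-AMI, beside 5.92% of all genes, and for 2 (Nppb and Npr3) against Sham, beside 7.85%. With a term for the series of sample numbers, which leaves EMPA–Pre-AMI replicate 4 as the single EMPA–Pre-AMI library in the series of all Control-AMI libraries, Npr3 stood at −0.82 (FDR = 0.999) and Corin at 0.17 (FDR = 0.999). Replicate 4 by itself had 22.6 CPM of Npr3, below the Control-AMI range of 28.4 to 49.8 CPM, and 64.6 CPM of Corin, inside the range of 44.96 to 84.2 CPM.

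Endothelial and fibroblast markers had median differences below 0 in the same cardiomyocyte libraries, with none past FDR 0.05. The endocardial genes summed to 21.1 to 34.7 CPM in EMPA–Pre-AMI against 28.7 to 54.5 in Control-AMI and 34.4 to 51.4 in Sham, and Cytl1, a secreted endocardial protein, differed from Control-AMI by −1.30 ± 0.39 (FDR = 0.07). The 8 endothelial markers tested had a median difference of −0.53, with Tek, the angiopoietin receptor, lowest (−1.27, FDR = 0.0571). Summed endothelial markers nevertheless overlapped, at 1101 to 2595 CPM in EMPA–Pre-AMI and 1357 to 2579 in Control-AMI. The 8 fibroblast markers tested had a median difference of −1.06 and summed to 430 to 2436 CPM in EMPA–Pre-AMI and 1721 to 4040 in Control-AMI. The 9 cardiomyocyte markers had a median difference of 0.20. The part of these transcripts in the Npr3 and Corin values was not tested.

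No other cardiomyocyte member passed either FDR threshold. Npr1 was read at 13.5, 0, 12.2 and 16.2 CPM in EMPA–Pre-AMI, all below the lowest Control-AMI library, where the library at 0 would give 3.51 CPM for 3 counts. Its difference was −1.05 ± 0.44 from Control-AMI (FDR = 0.154) and −0.96 ± 0.46 from Sham (FDR = 0.272). Npr2 was read at 48.4, 11.7, 47.5 and 69.5 CPM, with replicate 2 far below the rest, and differed from Control-AMI by −0.44 ± 0.29 (FDR = 0.342). That replicate also had the smallest scaling factor, 0.346, and the highest mitochondrial share, 66.01%, and without it Npr3 differed from Control-AMI by −1.05 and did not pass FDR 0.05. Nppb was read at 11.3, 9.37, 5.77 and 8.89 CPM, above the Sham libraries on 8 to 11 counts, and differed from Sham by 0.80 ± 0.44 (FDR = 0.345) and from Control-AMI by 0.25 ± 0.41 (FDR = 0.742). Nppa differed from Control-AMI by 0.13 ± 0.49 (FDR = 0.897) and from Sham by 0.70 ± 0.52 (FDR = 0.49).

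**Figure D4:**
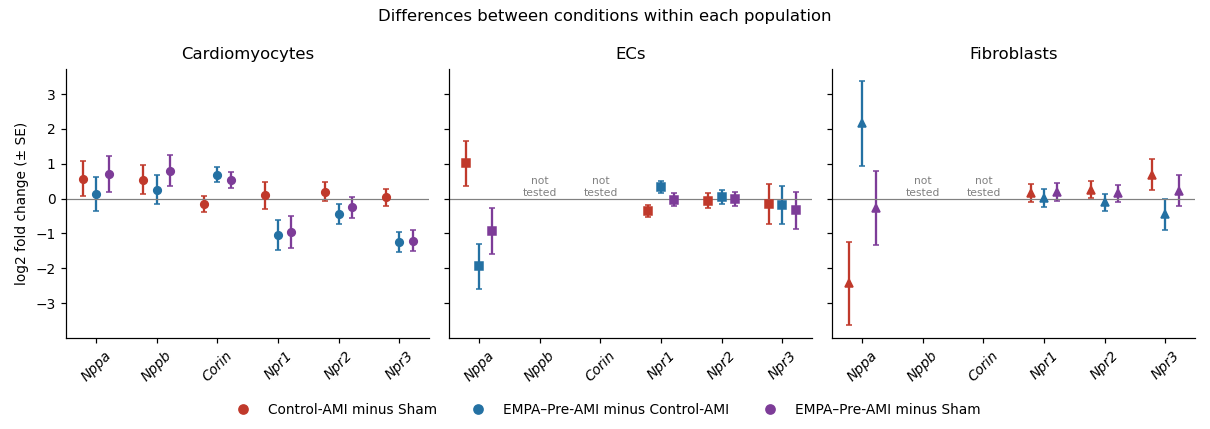
Log2 fold change of each gene between conditions in each population, from the fit of that population; points are estimates, bars are ± SE, and genes under the filter on low counts are marked as not tested. Npr3 in cardiomyocytes lay at −1.24 and −1.21 in both comparisons with EMPA–Pre-AMI, and Nppa in fibroblasts had the widest errors.

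In ECs none of the 4 members tested (Nppa, Npr1, Npr2 and Npr3) passed in any comparison, where 6.56% of 10438 genes passed for Control-AMI against Sham, 2.63% for EMPA–Pre-AMI against Control-AMI and 2.71% for EMPA–Pre-AMI against Sham. Npr1 was read at 50.3, 44.7, 36.9 and 45.3 CPM in Control-AMI and at 50.7, 44.8, 55.2, 66.8 and 56.3 CPM in EMPA–Pre-AMI, with differences of −0.36 ± 0.19 from Sham (Control-AMI, FDR = 0.297) and 0.33 ± 0.18 from Control-AMI (EMPA–Pre-AMI, FDR = 0.482). The group means of Npr2 were 59.3 CPM (Sham), 58.1 CPM (Control-AMI) and 59.3 CPM (EMPA–Pre-AMI). Npr3 was read at 194, 402, 102 and 74.1 CPM in Control-AMI and at 185, 330, 82.8, 124 and 116 CPM in EMPA–Pre-AMI, and differed by −0.16 ± 0.57 (Control-AMI against Sham, FDR = 0.918) and −0.18 ± 0.54 (EMPA–Pre-AMI against Control-AMI, FDR = 0.955). Differences of this size were not detectable against the spread of the EC libraries.

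Nppa in ECs rested on 0 to 56 counts a library. It was read at 12.2, 10.8, 24.0 and 4.005 CPM in Control-AMI and at 3.06, 2.38, 6.73, 3.86 and 0 CPM in EMPA–Pre-AMI. The difference between them was −1.94 ± 0.64 (FDR = 0.174), and under DESeq2 it passed (−1.98, FDR = 0.031). In the same libraries the cardiomyocyte markers summed to 289 to 1015 CPM in Control-AMI and 215 to 505 in EMPA–Pre-AMI, and the atrial genes to 4.41 to 20.6 and 0.708 to 4.25 CPM. Their part in the Nppa values was not tested.

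In fibroblasts none of the same 4 members passed, where 4.16% of 10691 genes passed for Control-AMI against Sham, 0% for EMPA–Pre-AMI against Control-AMI and 5.11% for EMPA–Pre-AMI against Sham. The 0 calls between EMPA–Pre-AMI and Control-AMI in edgeR stood beside 170 genes with an unadjusted p under 0.05. Npr3 was read at 20.1, 26.2, 32.1 and 14.8 CPM in Control-AMI and at 10.2, 20.5, 21.6 and 15.6 CPM in EMPA–Pre-AMI, with a difference of 0.68 ± 0.44 from Sham in Control-AMI (FDR = 0.434). The 2 Sham libraries lowest in Npr3, at 7.97 and 4.38 CPM, were also the 2 Sham libraries lowest in endothelial markers, at 107 and 105.7 CPM against 421 and 467. Mean Npr1 was 19.3 ± 5.05 CPM for Sham, 21.7 ± 5.42 for Control-AMI and 22.1 ± 3.82 for EMPA–Pre-AMI (SD, n = 4 each). Npr2 was 50.5, 60.9 and 56.3 CPM in the same order. Nppa in fibroblasts ranged over 0 to 66 counts, and its −2.44 ± 1.2 between Control-AMI and Sham had an FDR of 0.293. Without Sham replicate 2, the library with 66 counts, it was −0.96 (FDR = 0.721).

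Whether a condition acted differently between populations was tested by the difference of the effects in the fit over all libraries. No member passed, and the shares of all genes that did for the effect of Control-AMI against Sham were 1.51% (cardiomyocytes minus ECs), 0.331% (cardiomyocytes minus fibroblasts) and 3.22% (ECs minus fibroblasts). For the effect of EMPA–Pre-AMI against Control-AMI they were 0.993%, 0.00827% and 2.04%. The lowest FDR among members was that of Npr1 for EMPA–Pre-AMI against Control-AMI in cardiomyocytes minus ECs (−1.36 ± 0.45, FDR = 0.122), which passed under DESeq2 (−1.33, FDR = 0.0309) and without EMPA–Pre-AMI cardiomyocyte replicate 4 (−1.64, FDR = 0.0425). For Npr3 the same difference was −1.06 ± 0.67 (FDR = 0.444). Nppa in ECs minus fibroblasts differed by −4.10 ± 1.37 for EMPA–Pre-AMI against Control-AMI (FDR = 0.169), and this passed under DESeq2 (−4.13, FDR = 0.0461).

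Of 31 other genes of the pathway (processing proteases, cyclic GMP enzymes, kinases and targets, and transcription factors of the ligand genes), 26 were tested between Sham populations. Between cardiomyocytes and ECs 10 were higher and 4 lower, between cardiomyocytes and fibroblasts 8 were higher and 10 lower, and between ECs and fibroblasts 4 were higher and 12 lower. Of all 12085 genes, 52.9%, 47.3% and 37.7% passed in these comparisons in either direction, so such calls were common. Pde2a, a phosphodiesterase that cyclic GMP activates, followed the order of Npr3, with 173.5 ± 35.2 CPM in Sham ECs, 43.1 ± 2.36 in cardiomyocytes and 6.68 ± 5.13 in fibroblasts (SD, n = 4 each). The soluble guanylyl cyclase subunits Gucy1a1 and Gucy1b1, which answer to nitric oxide, and Pde5a, which degrades cyclic GMP, were higher in fibroblasts than in both other populations. Pde5a was at 20.9 ± 6.3 CPM in fibroblasts, 7.63 ± 3.27 in ECs and 5.33 ± 1.75 in cardiomyocytes. Summed markers of mural cells, among them Rgs5, Pdgfrb and Acta2, were at 713 to 2017 CPM in Sham fibroblasts. They were at 417 to 673 CPM in Sham ECs and 939 to 1148 in Sham cardiomyocytes. The part of mural transcripts in the Gucy1a1, Gucy1b1 and Pde5a values was not tested. Nkx2-5, a cardiac transcription factor of the Nppa promoter, was at 33.4 to 51.6 CPM in Sham cardiomyocytes and at 0 in all Sham EC and fibroblast libraries. Rgs2, which damps G protein signalling and is a target of the cyclic GMP kinase, was at 104 ± 25.8 CPM in Sham cardiomyocytes against 19.7 ± 3.79 in ECs and 17.1 ± 8.05 in fibroblasts.

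**Figure D5:**
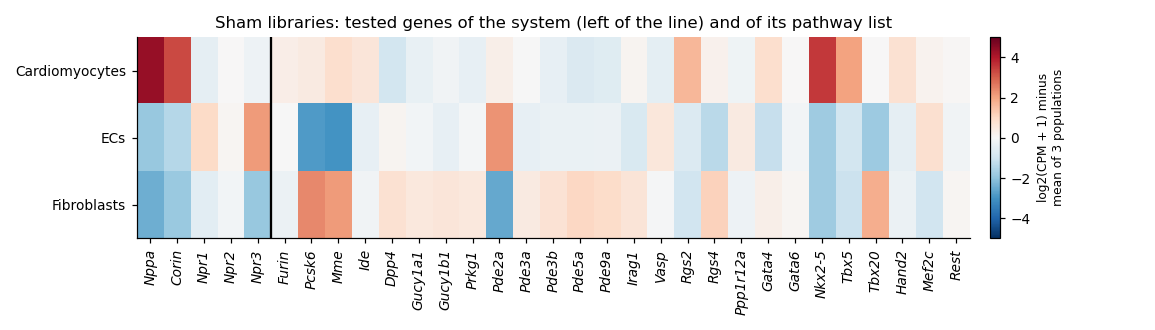
Level of 5 members (left of the line) and 26 pathway genes in Sham libraries, as mean log2(CPM + 1) of each population minus the mean of the 3 populations; red is higher and blue is lower. Nppa stood at 4.35 in cardiomyocytes, and Npr3 at 2.14 in ECs and −1.88 in fibroblasts.

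Between conditions, none of 24 tested pathway genes passed in cardiomyocytes in any of the 3 comparisons, but without EMPA–Pre-AMI replicate 4 there were 4 against Control-AMI and 1 against Sham, and without EMPA–Pre-AMI replicate 1 there was 1 against Control-AMI. For this and the later refits, the shares over all genes are not given. Their counts therefore show only how far the calls moved, and not a result about the pathway. In fibroblasts 1 of 24 rose in both infarct groups against Sham, beside 4.16% of all genes past the threshold in either direction for Control-AMI and 5.11% for EMPA–Pre-AMI. It was Rgs2, at 22.96, 24.7, 8.27 and 12.2 CPM among Sham libraries, 45.7, 38.8, 64.8 and 63.5 for Control-AMI (log2 fold change 1.62 ± 0.30, FDR = 0.00556) and 74.4, 54.9, 46.8 and 51.9 for EMPA–Pre-AMI (1.73 ± 0.30, FDR = 0.00365). The count against Sham reached 2 in Control-AMI without Sham replicate 1 or Control-AMI replicate 4, and in EMPA–Pre-AMI it reached 4 without Sham replicate 1, 2 without Sham replicate 4 and 3 without Control-AMI replicate 4. Other settings raised it as well, to 3 and 4 under DESeq2 and to 3 in both with the term for the sample-number series. Among fibroblasts the first series held Sham replicates 2, 3 and 4 but only replicate 4 of Control-AMI and of EMPA–Pre-AMI. In ECs 2 of 25 rose in Control-AMI, and 3 of 25 were lower in EMPA–Pre-AMI than in Control-AMI, beside 6.56% and 2.63% of all genes past the threshold in either direction. The counts of 1 of 24 and 2 of 25 lay near the shares over all genes. Mme, which encodes neprilysin and degrades natriuretic peptides, was at 37.2, 3.72, 6.43 and 20.4 CPM in Control-AMI and at 0.306 to 1.74 CPM in all other EC libraries (4.19 ± 0.67 against Sham, FDR = 0.000926, and −4.01 ± 0.60 for EMPA–Pre-AMI against Control-AMI, FDR = 0.00206). Pcsk6, a convertase that activates corin, was at 441, 52.9, 78.0 and 229 CPM in Control-AMI against 17.2 to 34.8 in Sham (3.08 ± 0.61, FDR = 0.0141) and was lower in EMPA–Pre-AMI than in Control-AMI (−3.01 ± 0.56, FDR = 0.0176). Tbx20, a cardiac transcription factor, was lower in EMPA–Pre-AMI than in Control-AMI (−2.17 ± 0.44, FDR = 0.0139).

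Among Sham libraries the mean levels of Mme, Pcsk6 and Tbx20 were highest in fibroblasts and lowest in ECs, with cardiomyocytes between them. The log2 difference of ECs minus fibroblasts was −6.16 (Mme), −5.25 (Pcsk6) and −3.65 (Tbx20), each past FDR 0.05. In the same EC comparisons 7 of 8 fibroblast markers tested rose in Control-AMI and 8 of 8 were lower in EMPA–Pre-AMI, and the libraries highest in Mme and Pcsk6, Control-AMI replicates 1 and 4, held 5102 and 2806 CPM of those markers. Without these 2 libraries Mme no longer passed (2.43, FDR = 0.133, and −2.28, FDR = 0.372), nor did Tbx20 (−1.18, FDR = 0.413), and Pcsk6 passed at a smaller size (1.48, FDR = 0.00409, and −1.41, FDR = 0.0116). The part of fibroblast or cardiomyocyte transcripts in the 3 genes was not tested. The 4 members tested in ECs passed in neither comparison without these libraries. Single libraries also moved the pathway counts in ECs: 2 higher in Control-AMI became 1 without Sham replicate 3 and 4 without Control-AMI replicate 3, and 3 lower in EMPA–Pre-AMI became 6 without EMPA–Pre-AMI replicate 2 and 1 without EMPA–Pre-AMI replicate 5. Other settings lowered them too: 2 became 1 with a block for the replicate number, with the stricter filter and in the fit of only the 2 groups, and 3 became 1 with the block or the stricter filter and 0 with the term for the sample-number series. Control-AMI replicates 1 and 4 were the only EC libraries in the fourth series.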

How the data were processed

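RNA from 3 heart populations was read as 3′ tags (QuantSeq, forward kit) in 38 libraries. According to the submitters' processing notes and the study's methods, reads were trimmed with cutadapt 2.8 at quality 20 and quantified with Salmon against GRCm39 and Ensembl 106. The authors deposited estimated counts per gene, of which 4.549% were not whole, and these were rounded. Of 35682 gene identifiers, 35407 had a symbol in GENCODE M39.

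Groups came from the labels. Each population was fitted with its 3 groups in edgeR 4.0.16 (R 4.3.3): filterByExpr (minimum count 10), TMM, robust glmQLFit and glmQLFTest, with Benjamini-Hochberg FDR over 9167 (cardiomyocytes), 10438 (ECs) and 10691 (fibroblasts) genes. Population pairs and differences of effect came from a fit of 9 groups over 12085 genes. An SE was taken as the size of the log2 fold change over the root of F. Printed CPM used TMM factors over all libraries (0.346 to 0.637 in cardiomyocytes and 1.37 to 1.70 in sorted cells). The sources describe the pooled preparations as independent experiments. Libraries of different populations can come from the same hearts, and which of them do is not given. The fit over all libraries treated them as independent. Within-group library pairs differed beyond sampling noise (62 pairs). A count of 3 was worth 0.692 to 3.51 CPM.

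The text names the 6 members, list genes past FDR 0.05, defining markers, and for each member the 3 genes with the highest Pearson r (log2 CPM, prior count 2) in the population highest in Sham. Nppc was named after its values were seen. The members and gene lists were chosen with earlier results of these data known. The alternatives were RLE factors, DESeq2 1.42.0, other filters, no mitochondrial genes, no robust step, only 2 groups, a block for the replicate number, sample-number series as a term, the mean of the 3 conditions (populations only) and single libraries left out. Library size with no TMM factors, and ECs without Control-AMI replicates 1 and 4, were added after seeing the data. Upstream sequences are RefSeq's (table on GRCm38.p6) and were placed on GRCm39 by an exact unique match. Each fit was tested on simulated counts. Amino acid sequences were not used here.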

Additional observations from a re-analysis of the deposited data

Results flagged for a closer look

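In 48 sets of libraries (a gene in a group), 7 held a library whose gap to its nearest neighbour was large against the range of the set by Dixon's criterion, and chance marks about 1 in 20 sets. Nppa in Sham cardiomyocytes was 1016 CPM in replicate 4 and 338 to 438 in the others. Nppa in EMPA–Pre-AMI cardiomyocytes was 348 CPM in replicate 4 and 952 to 1046 in the others. Npr2 in Sham cardiomyocytes was 45.4 CPM in replicate 4 and 57.2 to 58.5 in the others. Npr2 in Control-AMI cardiomyocytes was 86.9 CPM in replicate 3 and 51.3 to 61.2 in the others. Npr2 in Sham fibroblasts was 73.7 CPM in replicate 1 and 40.6 to 44.9 in the others. Corin in Control-AMI cardiomyocytes was 84.2 CPM in replicate 1 and 44.96 to 53.8 in the others. Corin in Control-AMI fibroblasts was 1.99 CPM in replicate 4, on 7 counts, and 0 in the others.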

How the results depend on the processing

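For members past the threshold in the Sham comparisons, 70 values under other settings and 339 with a library left out kept direction and call, and 2 and 3 did not. The exceptions were all Npr3 in cardiomyocytes minus fibroblasts (1.42). They were −0.34 on library size alone and 0.88 (FDR = 0.221) with the term for the sample-number series. With a library left out they were 1.28, 1.22 and 1.11, where all such refits ran from 1.11 to 1.99. On library size alone Npr1 (−1.56) and Npr2 (−1.65) in cardiomyocytes minus fibroblasts also turned direction, and Npr2 in cardiomyocytes minus ECs passed (−1.95, FDR = 2.25e-07), where that scale moved the median of all genes by the shift given above. The count of members past FDR 0.05, 0 in every comparison of conditions, became 2 under DESeq2, 1 with no filter and 1 on library size alone for EMPA–Pre-AMI against Control-AMI in cardiomyocytes (0 to 2 with a library left out). It became 1 under DESeq2 and 1 with no filter against Sham (0 to 1 with a library left out), and 1 under DESeq2 for EMPA–Pre-AMI against Control-AMI in ECs. For differences of that effect it became 1 under DESeq2 in cardiomyocytes minus ECs (0 to 1 with a library left out) and 1 in ECs minus fibroblasts. The causes were not tested. On library size alone 372 of 9167 genes passed for EMPA–Pre-AMI against Control-AMI in cardiomyocytes. The shares over all genes are not given for the other settings or with a library left out. The single genes were Npr3 (FDR = 0.0192 with no filter and 0.0369 on library size alone against Control-AMI, and 0.0209 under DESeq2, 0.0358 with no filter and 0.0127 without EMPA–Pre-AMI replicate 4 against Sham), beside those in the report. Pathway counts moved by over 1.5 times in 29 values under other settings (130 did not) and in 20 with a library left out (436 did not). In ECs for EMPA–Pre-AMI against Control-AMI they ran from 1 to 6 with a library left out. Replicate numbers were not used as a pairing in the reported fits, and the sources do not say what they link. Of same-numbered pairs, 3 of 12 in cardiomyocytes, 4 of 12 in ECs and 6 of 12 in fibroblasts had deviations correlated over 0.1. Among pairs with different numbers these were 8 of 44, 3 of 44 and 9 of 36. Across populations they were 3 of 36 same-numbered pairs and 13 of 124 others. With a replicate block, Npr3 for EMPA–Pre-AMI against Control-AMI in cardiomyocytes was −1.14 (FDR = 0.113) and Corin 0.61 (FDR = 0.186), and no count of members moved. Counts of 0 to 66 a library limit Nppa in sorted cells and Nppb throughout.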
